A study of Mus musculus with 4 samples.

Results

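The genes described here mark B cells, T cells, natural killer (NK) and other cytotoxic cells, lymphocytes of more than 1 of these kinds, and plasma cells. The list held 46 genes, chosen by name as lineage markers, with 14 in the B cell group, 18 in the T cell group, 5 in the NK and cytotoxic group, 5 in the shared lymphocyte group and 4 in the plasma cell group. A named probe was found for 45 of them, out of 18952 genes named on the array, and Cd8b1 was left without one. The question asked is how these genes read in mammary glands that lack stathmin, a protein that binds tubulin and destabilises microtubules, and whether arrays of 1 genotype read alike.

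Both groups were glands of 13-week-old female mice carrying the Δ16HER2 transgene, a splice form of human HER2 that drives mammary tumours, taken before neoplasia. The first group was knockout for stathmin (KO 1 and KO 2) and the second was wild type for it (WT 1 and WT 2), with 1 array per sample. The labels give neither the promoter of the transgene nor the mouse strain, and they do not say whether the samples of a group came from separate animals. The p-values therefore measure only the spread between these samples, and 2 arrays per group limit the precision of every value.

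B cells sense antigen with a membrane immunoglobulin that signals through CD79A and CD79B, and T cells with a T cell receptor that signals through the CD3 chains, CD247 and the kinases LCK and ZAP70. NK cells and cytotoxic T cells kill target cells with granzymes, and plasma cells are B cells that have turned to antibody secretion. A mammary gland holds scattered lymphocytes between ducts and in its fat, and a lymph node lies within the fourth mammary fat pad of the mouse, where B cells gather in follicles and T cells around them. In whole tissue, more cells of a type and more RNA per cell cannot be told apart.

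Each level below is the log2 processed signal of a probe minus the 75th percentile of its array, so a level of 0 is that percentile and 1 unit is a factor of 2. A probe's level is compared only with the same probe on another array. The 75th percentile was a signal of 291 on KO 1 and 160 on KO 2, against 191 on WT 1 and 144 on WT 2. The lowest level still well above background was -4.79 on KO 1 and -4.30 on KO 2, against -4.21 on WT 1 and -3.78 on WT 2. Correlations between arrays across probes ran from 0.967 to 0.979. The brighter probe of Stmn1, the stathmin gene, had a signal of 6865 on KO 1 and 1620 on KO 2, against 9222 on WT 1 and 1740 on WT 2. A second, dim probe was well above background on WT 1 alone, with 5.57 on KO 1, 4.84 on KO 2, 87.6 on WT 1 and 13.8 on WT 2. On the bright probe WT 2 was close to KO 2, on the dim probe both KO signals were below both WT signals but WT 2 was not above background, and where the deletion lies relative to them is not given in the sources used here, so the arrays are called by their labels. The background limit was cleared on each array by 8 of 8 mammary epithelium genes and 4 of 4 adipocyte genes, where 12168 of 18950 named genes did so. These counts alone do not identify the tissue.

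The lymphocyte genes were far higher on KO 2 than on the other arrays. KO 1 did not share this. Of the 41 members well above background on any array, 38 were highest on KO 2 (92.7%), where 27.4% of 14918 genes were, and 35 were at least 2-fold above the highest of the other 3 arrays (85.4%), where 2.85% of genes were. These counts include 6 members, and 626 genes, that passed the filter on KO 2 alone, so a high reading there is built in for them. Among the 22 members above background on all 4 arrays, 17 were at least 2-fold above on KO 2. The share of genes under that filter was not counted. On KO 1, WT 1 and WT 2, 0 of the 41 members were 2-fold above the others, where 35 (0.235%), 234 (1.57%) and 107 (0.717%) of the 14918 genes were. At such low shares few or no members among 41 would be counted. The median of the 45 members against the WT mean was -0.57 on KO 1 and 3.20 on KO 2. Over all 18950 named genes, likewise with no background limit, it was -0.21 on KO 1 and 0.003 on KO 2. Over all genes above background on any array it was -0.07 on KO 1 and 0.03 on KO 2. For the members, the KO 1 median shrank to -0.06 after quantile normalization, while the KO 2 median was then 3.24. Under normexp background correction the KO 2 median was 1.34, and 26 of the 41 members were at least 2-fold above the other arrays. The share of genes under normexp was not counted.

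Adjusted p-values by limma, with Benjamini-Hochberg adjustment over all probes tested, ran from 0.935 to 0.999 for the 31 members tested. No member had an adjusted p under 0.05, and neither did any of the 13206 genes tested (0%). At an unadjusted p under 0.05, 0 of 31 members were higher and 0 were lower, against 1.14% and 2.41% of tested genes. Both KO arrays lay above both WT arrays for 2 of 41 members, Cd3d and Cd3g (4.88%), against 16% of genes. Both lay below for 1 of 41, Tnfrsf17 (2.44%), against 17.5% of genes. Without KO 2, the median KO minus WT difference of every lineage was negative, from -0.91 for B cell genes to -0.18 for T cell genes. Over all named genes it was -0.21 on KO 1, so the T cell value was no lower than that. After quantile normalization the KO 1 values were above the WT mean for T cell (0.26) and plasma cell genes (0.11).

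**Figure D1:**
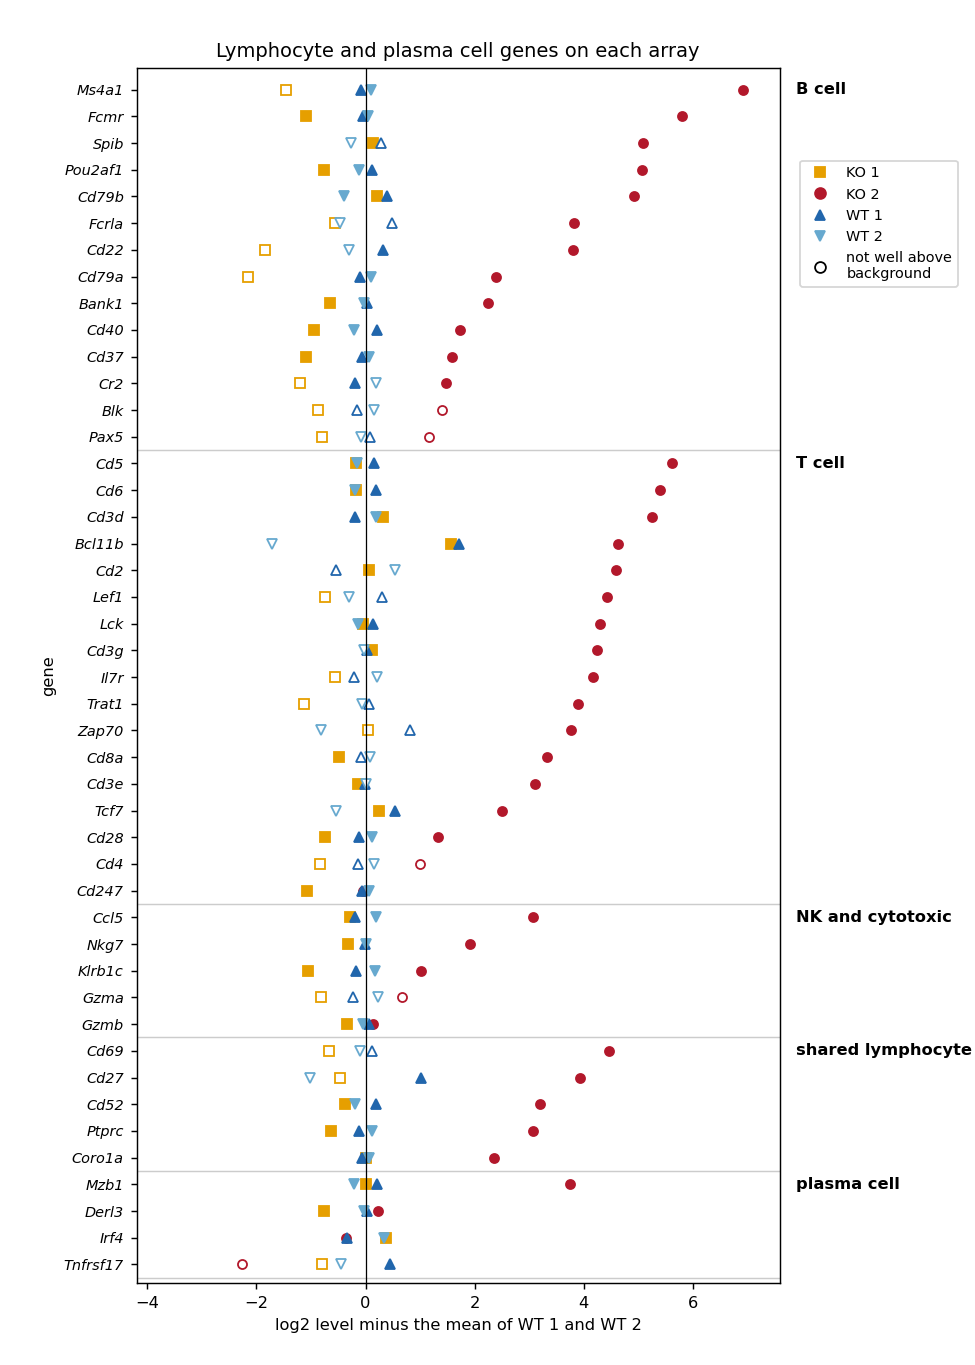
Log2 level of each of the 45 members on each array, minus the mean of WT 1 and WT 2, with 1 row per gene and open symbols where the probe was not well above background. KO 2 stands to the right in most rows of every lineage but plasma cell, up to 6.92 for Ms4a1, while KO 1 lies near or left of the WT arrays.

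Of the 14 B cell genes 12 were above background on any array, and all 12 were highest on KO 2 and at least 2-fold above the other 3 arrays there. Under normexp background correction 7 of the 12 were at least 2-fold above, with the share of genes not counted. The B cell median on KO 2 over all 14 genes was then 1.25 above the WT mean in place of 3.097. Cd79a and Cd79b encode the signalling chains of the B cell receptor. Cd79a read -5.81 on KO 1 and -1.26 on KO 2, against -3.76 on WT 1 and -3.54 on WT 2. Its KO 1 reading was not above background, and the WT arrays lay between the KO arrays. Cd79b read -1.30 on KO 1 and 3.41 on KO 2, against -1.12 on WT 1 and -1.91 on WT 2, with KO 1 inside the WT range and KO 2 23.0-fold above the highest other array. The fitted difference was 2.57 ± 1.49 for Cd79b (log2, SE; 0.22 without KO 2) and 0.12 ± 1.42 for Cd79a, both smaller than 2 SE.

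The 250 bases before the Cd79a start, shown for the E-box that recurs in these promoters, lie at chr7:24897247-24897496 on the plus strand (RefSeq, GRCm38.p6). Capitals mark CAGGTG, a letter string bound by E proteins, the basic helix-loop-helix factors of early lymphocytes.
Cd79a: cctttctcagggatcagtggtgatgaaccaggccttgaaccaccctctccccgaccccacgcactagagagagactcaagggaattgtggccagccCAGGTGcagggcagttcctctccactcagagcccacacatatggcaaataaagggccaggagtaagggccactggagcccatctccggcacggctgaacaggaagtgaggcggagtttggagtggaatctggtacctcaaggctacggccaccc
Of 42 RefSeq promoter windows for 33 members (250 bases before to 50 after a start), 20 held CAGGTG or its reverse complement CACCTG (47.6%), compared with 20.2% of all 32851 windows. In the B cell group it was in 7 of 10 windows and in the T cell group in 11 of 20. Several windows of 1 gene can overlap, and a match describes the letters only.

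Ms4a1, which encodes CD20, differed most between arrays. It read -5.12 on KO 1, below background, and 3.26 on KO 2, against -3.75 on WT 1 and -3.57 on WT 2, so that KO 2 was 114-fold above the highest other array. The KO mean was -0.93 ± 5.93 and the WT mean -3.66 ± 0.13 (SD, n = 2 each). Its fitted difference of 2.73 ± 2.60 (SE) turned to -1.46 without KO 2. Cd22, an inhibitory co-receptor of the B cell receptor, read -5.69 on KO 1 and -0.03 on KO 2, against -3.53 on WT 1 and -4.15 on WT 2, and was above background on KO 2 and WT 1. Cr2, the complement receptor CD21 of mature and follicular B cells, read -4.61 on KO 1 and -1.93 on KO 2, against -3.60 on WT 1 and -3.21 on WT 2. CD37, a tetraspanin, and CD40, the receptor for T cell help, followed the same order. Cd37 read -2.95 on KO 1 and -0.28 on KO 2, against -1.94 on WT 1 and -1.80 on WT 2. Cd40 read -4.44 on KO 1 and -1.76 on KO 2, against -3.30 on WT 1 and -3.71 on WT 2. For Cd37 and Cd40 the KO arrays enclosed the WT arrays on both sides. Cr2 was above background on KO 2 and WT 1 only.

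Transcription factors of B cells differed in whether they could be measured. Spib, an ETS factor of B cells, read -4.08 on KO 1 and 0.87 on KO 2, against -3.95 on WT 1 and -4.50 on WT 2, where it was not well above background. The KO mean was at least 4.78-fold above WT (adjusted p = 0.935). Without KO 2 the difference was 0.14. Pou2af1, the co-activator of octamer-binding factors, read -3.70 on KO 1 and 2.12 on KO 2, against -2.82 on WT 1 and -3.07 on WT 2. Pax5, which holds B cell identity, stayed under the background limit on each array, with -5.35 on KO 1 and -3.39 on KO 2, against -4.47 on WT 1 and -4.65 on WT 2. Blk, a B cell Src-family kinase, was below background everywhere too. Neither gene has a usable fold.

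The Spib promoter is shown because this lineage factor was bright on KO 2, and its window held CCCNNGGG, the string of EBF1, an early B cell factor. The stretch is chr7:44532072-44532321 on the minus strand (GRCm38.p6). Capitals mark 2 matches that overlap each other. The string reads the same on both strands.
Spib: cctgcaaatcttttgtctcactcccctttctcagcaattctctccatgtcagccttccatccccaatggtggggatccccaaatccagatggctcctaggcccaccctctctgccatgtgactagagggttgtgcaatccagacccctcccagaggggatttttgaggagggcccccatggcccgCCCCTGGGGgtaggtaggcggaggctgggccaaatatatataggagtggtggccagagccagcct
This string was in 7 of 42 member windows (16.7%), among them Bank1, Cd22 and Spib in the B cell group, compared with 13.7% of all windows. The octamer ATGCAAAT (reverse complement ATTTGCAT) was in 0 of 42, compared with 1.74%. The PU.1 and SPIB string GAGGAAGT (reverse complement ACTTCCTC) was in 2 of 42, those of Cd37 and Cd5 (4.76%), compared with 3.2%.

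The remaining B cell genes also peaked on KO 2. Fcmr, a receptor for immunoglobulin M, was 54.1-fold above the highest other array there, and Bank1, a scaffold of B cell receptor signalling, 4.66-fold. Fcrla, an Fc receptor-like protein kept inside B cells, was above background on KO 2 alone, at least 5.25-fold above the other arrays. On KO 1, 12 of 14 B cell genes were the lowest of the 4 arrays, compared with 30 of 45 members and 8608 of 18950 genes, all with no background limit. Among those above background on any array it was 26 of 41 members (63.4%) and 34.9% of genes. The B cell median on KO 1 was -0.91 against the WT mean, and -0.31 after quantile normalization. Among genes above background on all 4 arrays, 15 of 22 members and 29% of 12168 genes were lowest on KO 1. The count of members depended on the scaling, with 13 of 22 under quantile normalization, 10 under median scaling and 17 under normexp. The matching shares of genes under these scalings were not counted, so these counts have no share to be set against. The lower background limit of KO 1 goes with these readings, and its part in them was not tested.

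T cell genes gave the highest lineage median on KO 2, 4.17 above the WT mean (under normexp background correction it was 1.49, and 2.34 for shared lymphocyte genes), with 15 of the 16 above background at least 2-fold above every other array. The CD3 chains carry the signal of the T cell receptor. Cd3d read -2.44 on KO 1 and 2.49 on KO 2, against -2.95 on WT 1 and -2.58 on WT 2. Cd3g read -3.76 on KO 1 and 0.38 on KO 2, against -3.84 on WT 1 and -3.90 on WT 2. The WT 2 reading of Cd3g was not above background. Both KO arrays were above both WT arrays for Cd3d and Cd3g, by a wide gap on KO 2 and narrowly on KO 1. The fitted difference was 2.79 ± 1.54 for Cd3d and 2.18 ± 1.30 for Cd3g (log2, SE, adjusted p = 0.935 for both), and without KO 2 it was 0.32 and 0.11. Cd3e read -4.12 on KO 1 and -0.86 on KO 2, against -3.98 on WT 1 and -3.97 on WT 2, with KO 1 just below both WT arrays. Its WT 2 reading was not above background either.

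Cd3d and Cd3g lie next to each other on chromosome 9 and point away from each other, and both promoters held the E-box. The Cd3d stretch is chr9:44981536-44981785 on the plus strand and the Cd3g stretch is chr9:44980432-44980681 on the minus strand (GRCm38.p6). Capitals mark CACCTG, the reverse complement of CAGGTG.
Cd3d: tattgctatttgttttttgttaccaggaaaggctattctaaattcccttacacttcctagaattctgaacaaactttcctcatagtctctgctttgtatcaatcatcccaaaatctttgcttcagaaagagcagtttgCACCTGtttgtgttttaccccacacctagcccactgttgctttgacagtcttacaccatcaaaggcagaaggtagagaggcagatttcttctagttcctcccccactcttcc
Cd3g: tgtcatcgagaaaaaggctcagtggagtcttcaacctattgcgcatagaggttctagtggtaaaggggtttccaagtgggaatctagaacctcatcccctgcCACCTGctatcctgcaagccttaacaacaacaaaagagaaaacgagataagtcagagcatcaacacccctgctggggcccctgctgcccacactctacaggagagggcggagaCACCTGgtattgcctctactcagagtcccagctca
The string CTTTGA (reverse complement TCAAAG), the core bound by TCF7 and LEF1, was in 10 of 42 member windows (23.8%), Cd3d among them, compared with 16% of all windows.

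Kinases downstream of the receptor were high on KO 2. Lck read -2.29 on KO 1 and 2.06 on KO 2, against -2.11 on WT 1 and -2.38 on WT 2, with KO 1 between the WT arrays. Zap70 was above background on KO 2 alone, at least 7.72-fold above the other arrays. Cd247, the zeta chain of the receptor, was an exception on its brightest probe, with -3.67 on KO 1 and -2.64 on KO 2, against -2.66 on WT 1 and -2.54 on WT 2. Its difference was -0.56 ± 0.40 (SE), and KO 2 did not stand apart there.

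The co-receptors and other surface proteins followed KO 2 where they were measurable. Cd8a, of cytotoxic T cells, read -4.10 on KO 1 and -0.29 on KO 2, against -3.69 on WT 1 and -3.54 on WT 2, where it was not well above background, so KO was at least 2.67-fold above WT (adjusted p = 0.935). Without KO 2 this difference was -0.49. Cd4, of helper T cells, read -6.64 on KO 1 and -4.81 on KO 2, against -5.96 on WT 1 and -5.66 on WT 2, below background on every array, and has no usable fold. Cd5 and Cd6, which tune receptor signalling, were 44.3-fold and 37.0-fold above the highest other array on KO 2, and Cd28, the co-stimulatory receptor, 2.31-fold. Cd2, an adhesion molecule, was not above background on either WT array. KO was at least 3.19-fold above WT (adjusted p = 0.935), with KO 1 only 0.07 above the WT mean. Trat1, an adaptor that stabilises the receptor complex, was above background on KO 2 alone, at least 4.95-fold above the other arrays.

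Genes of naive T cells and T cell identity also read highest on KO 2. Il7r, the interleukin-7 receptor of naive and memory T cells, read -4.12 on KO 1 and 0.62 on KO 2, against -3.77 on WT 1 and -3.34 on WT 2, and on this brightest probe was above background on KO 2 alone, at least 15.6-fold above the other arrays. Its other probe was above background on KO 2, WT 1 and WT 2, with KO 2 only 0.29 (log2) above the highest other array. Lef1, a factor related to TCF7, was on its brightest probe likewise above background on KO 2 alone, at least 17.5-fold above the others, while its other probe was above background on KO 2 and WT 1. Tcf7 read -3.59 on KO 1 and -1.33 on KO 2, against -3.29 on WT 1 and -4.38 on WT 2, with KO 1 between the WT arrays. The WT 2 reading of Tcf7 was not above background. Bcl11b, a factor that holds T cell identity, read -2.65 on KO 1 and 0.42 on KO 2, against -2.48 on WT 1 and -5.93 on WT 2. The WT 2 reading of Bcl11b was not above background and set the WT spread, so the size of the difference rests on a dim reading. The fitted difference of 3.096 ± 1.44 (SE) was 1.56 without KO 2 and 1.37 without WT 2.

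NK and cytotoxic genes split. Ccl5, a chemokine of activated T and NK cells, read 0.38 on KO 1 and 3.74 on KO 2, against 0.47 on WT 1 and 0.87 on WT 2. Nkg7, a granule protein of cytotoxic cells, read -0.86 on KO 1 and 1.38 on KO 2, against -0.55 on WT 1 and -0.53 on WT 2. These 2 genes were 7.32-fold and 3.76-fold above the highest other array on KO 2, with KO 1 lowest for both. Klrb1c, the NK1.1 receptor of NK cells, was 1.79-fold above there. Gzmb, granzyme B, read -2.64 on KO 1 and -2.16 on KO 2, against -2.24 on WT 1 and -2.35 on WT 2, and its difference of -0.10 ± 0.28 (SE) was smaller than its error. Gzma, granzyme A, was below background throughout, with -6.17 on KO 1 and -4.68 on KO 2, against -5.59 on WT 1 and -5.11 on WT 2. The lineage median on KO 2 was 1.01 above the WT mean, and 2 of the 4 genes above background were at least 2-fold above the other arrays.

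Nkg7 and Gzmb are shown as a gene that stood out on KO 2 and 1 that did not, with the RUNX core in both promoters. The Nkg7 stretch is chr7:43436888-43437137 on the plus strand and the Gzmb stretch is chr14:56262335-56262584 on the minus strand (GRCm38.p6). Capitals mark TGTGGT or its reverse complement ACCACA.
Nkg7: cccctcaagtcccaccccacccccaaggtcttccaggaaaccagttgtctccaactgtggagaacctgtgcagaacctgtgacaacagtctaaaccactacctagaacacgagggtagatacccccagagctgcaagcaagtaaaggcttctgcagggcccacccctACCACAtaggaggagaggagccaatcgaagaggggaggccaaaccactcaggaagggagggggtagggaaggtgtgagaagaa
Gzmb: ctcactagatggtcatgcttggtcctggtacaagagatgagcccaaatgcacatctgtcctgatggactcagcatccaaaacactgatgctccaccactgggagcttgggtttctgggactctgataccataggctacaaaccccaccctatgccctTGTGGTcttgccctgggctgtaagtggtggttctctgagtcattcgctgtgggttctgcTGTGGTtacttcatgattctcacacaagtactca
All 4 NK and cytotoxic windows, of Gzma, Gzmb, Klrb1c and Nkg7, held this string, within 9 of 42 member windows (21.4%) and 16.8% of all windows. 
All 5 genes shared by lymphocyte kinds were highest on KO 2, and 3 of them were above background on all 4 arrays. Coro1a, an actin regulator of leukocytes, read 0.88 on KO 1 and 3.23 on KO 2, against 0.81 on WT 1 and 0.94 on WT 2. Cd52, a small surface glycoprotein, read 0.44 on KO 1 and 4.02 on KO 2, against 1.01 on WT 1 and 0.63 on WT 2. Ptprc, which encodes the pan-leukocyte phosphatase CD45, read 0.00 on KO 1 and 3.70 on KO 2, against 0.52 on WT 1 and 0.75 on WT 2. KO 1 lay within the WT range for Coro1a and below both WT arrays for Cd52 and Ptprc, while KO 2 stood 4.87-fold, 8.05-fold and 7.71-fold above the highest other array. Cd69, an early activation marker, read -6.10 on KO 1 and -0.97 on KO 2, against -5.33 on WT 1 and -5.55 on WT 2, and was above background on KO 2 alone, at least 7.01-fold above the others. Cd27, a co-stimulatory receptor of T and memory B cells that was above background on KO 2 and WT 1, was 7.61-fold above the highest other array on KO 2.

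The 4 plasma cell genes read differently from each other. Mzb1, an endoplasmic reticulum helper of antibody assembly that marginal zone B cells also express, read -3.12 on KO 1 and 0.61 on KO 2, against -2.93 on WT 1 and -3.34 on WT 2. Its difference was 1.88 ± 1.18 (SE) and 0.02 without KO 2. Irf4, a factor of plasma cells and activated lymphocytes, read -2.62 on KO 1 and -3.36 on KO 2, against -3.33 on WT 1 and -2.66 on WT 2, a difference of 0.01 ± 0.39 with overlapping groups. Tnfrsf17, the survival receptor BCMA of plasma cells, read -3.87 on KO 1 and -5.34 on KO 2, against -2.62 on WT 1 and -3.53 on WT 2. It was above background on WT 1 alone, and the KO mean was at least 2.01-fold lower than the WT mean, with the bound resting on that array. Derl3, a factor of protein disposal from the endoplasmic reticulum, read -1.63 on KO 1 and -0.63 on KO 2, against -0.83 on WT 1 and -0.89 on WT 2, a difference of -0.27 ± 0.39 (SE). The lineage median was -0.38 on KO 1 and -0.06 on KO 2.

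**Figure D2:**
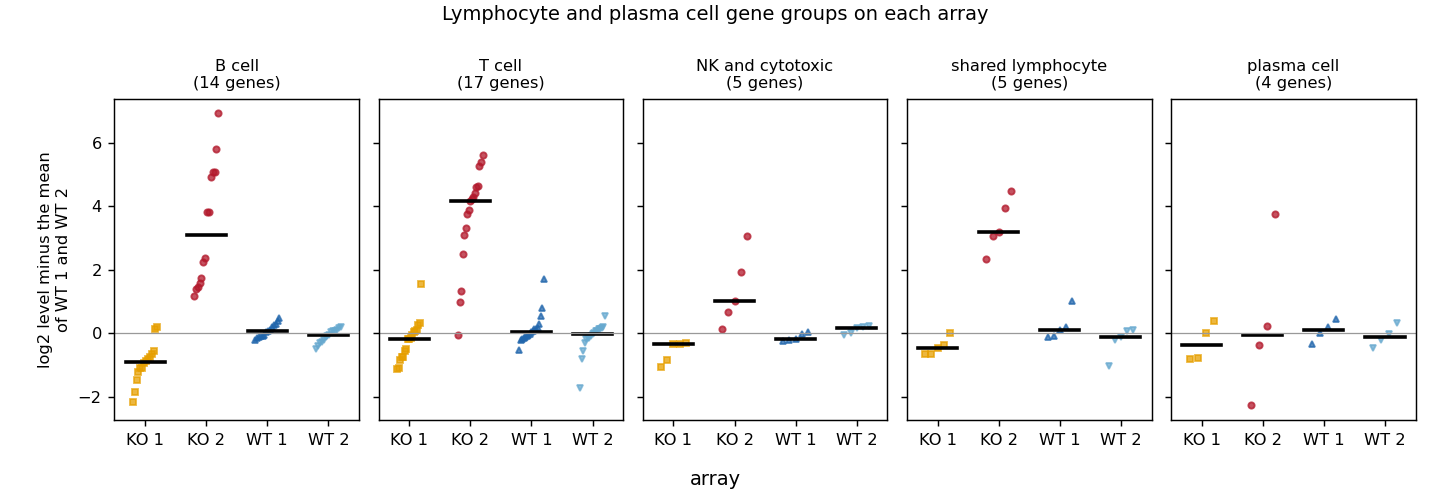
Log2 level minus the WT mean for the genes of each lineage, with KO 1 and KO 2 left of WT 1 and WT 2 and a bar at the median. On KO 2 the medians were 3.097 (B cell), 4.17 (T cell), 1.01 (NK and cytotoxic), 3.20 (shared lymphocyte) and -0.06 (plasma cell).

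The WT arrays were close to each other for most members. WT 1 and WT 2 differed by less than 1 log2 unit in 40 of 45 members, with a median difference WT 1 minus WT 2 of 0.06. The lowest was -1.07 and the highest 3.45, for Bcl11b. Signals over the 75th percentile were also summed over all members. The sum was 9.48 on KO 1 and 125 on KO 2, against 12.2 on WT 1 and 12.0 on WT 2.

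Several members had more than 1 probe, and these did not always read alike. For 15 members with several probes there were 18 other probes, of which 16 were above background on KO 2. With no background limit, 18 of the 18 were highest on KO 2 and 13 were at least 2-fold above the other arrays. The matching share over the other probes of all genes was not counted. The 18 differed from the brightest probe by more than 0.5 in fold (log2) in 11 cases. For Cd247, 1 of the other probes was 3.54 above the WT mean on KO 2, where the brightest was at -0.04. For Cd8a, another probe was 6.63 above the WT mean on KO 2, where the brightest was 3.32, and for Cr2 it was 5.32 where the brightest was 1.47. The reverse held for Il7r (0.40 where the brightest gave 4.17), Cd22 (0.73 where it gave 3.81), Bank1 (0.47 where it gave 2.25) and Cd6 (1.96 where it gave 5.39). Bcl11b was below background on WT 2 with both of its probes, which read -5.93 and -5.68 there.

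**Figure D3:**
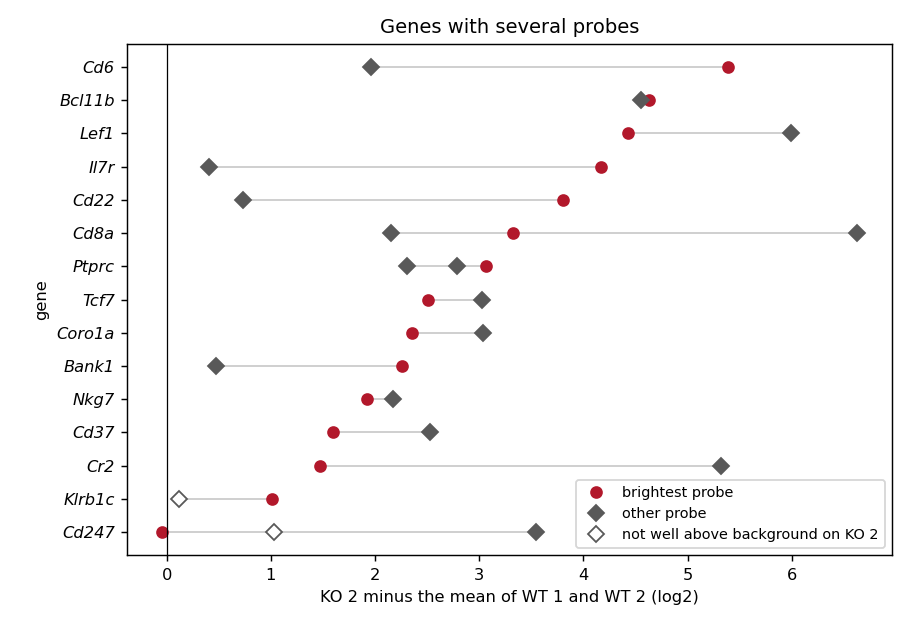
KO 2 minus the mean of WT 1 and WT 2 (log2) for each probe of the 15 members with several probes, with circles for the brightest probe of a gene and diamonds for its other probes. Every point but the brightest probe of Cd247, at -0.04, lies above 0, and probes of 1 gene lie far apart for Il7r, Cd8a, Cr2 and Cd247.

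Related genes that are not members showed how far the pattern of KO 2 reached. Of 66 genes above background on any array in 7 further lymphoid lists, 37 were at least 2-fold above the other arrays on KO 2, and of 27 in 5 lists of other tissue, 0 were. Over all 14918 genes above background on any array the share was 2.85%. Other B cell genes gave 10 of 14, with Cxcr5, the chemokine receptor of follicular B cells, above background on KO 2 alone and at least 12.5-fold above the other arrays. Other T cell signalling genes gave 10 of 14, with Lat 3.90 above the WT mean on KO 2. Cd96 was above background on KO 2 alone, at least 13.1-fold above the other arrays. Regulatory and activated T cell genes gave 4 of 6. In that list Icos was 4.87 above the WT mean on KO 2, and Foxp3, the factor of regulatory T cells, was above background on KO 2 alone, at least 1.503-fold above the other arrays. Other NK and cytotoxic genes gave 4 of 7, germinal centre genes 1 of 5 and other plasma cell genes 1 of 9. Xbp1, a plasma cell factor that secretory epithelium also uses, was 0.19 above the WT mean on KO 2.

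The lymph node homing and stroma list gave 7 of 11 genes at least 2-fold above the other arrays on KO 2, and its summed level was 18.2 on KO 1 and 95.3 on KO 2, against 22.0 on WT 1 and 20.7 on WT 2. Ccl19 and Ccl21a, chemokines made by stromal cells of the T cell zone, had the largest KO 2 differences from the WT mean among the genes named of this list. Ccl19 read -1.39 on KO 1 and 4.73 on KO 2, against -1.33 on WT 1 and -1.03 on WT 2. Ccl21a read -2.29 on KO 1 and 3.42 on KO 2, against -1.51 on WT 1 and -2.26 on WT 2. Their receptor Ccr7, carried by naive lymphocytes, was 3.05 above the WT mean on KO 2 and was named after its value was seen. Ltb, a lymphotoxin, was 4.31 above. All of these were high on the array where the members were high. Whether lymph node tissue had a part in the members' levels was not tested.

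Of the 27 markers of other cells above background on any array, 0 were at least 2-fold above the other arrays on KO 2. Over all genes 2.85% were, and at so low a share few or no markers among 27 would be counted. On KO 2 the macrophage and monocyte genes ran from -1.08 to 0.79 against the WT mean, and 1 was highest there. Macrophage and monocyte genes gave 0 of 7 at least 2-fold above the other arrays, with a median of -0.02 against the WT mean and a summed level of 13.2 on KO 1 and 14.4 on KO 2, against 12.1 on WT 1 and 19.0 on WT 2. Adipocyte, fibroblast and red blood cell genes gave 0 of 4 each, with medians of 0.04, -0.55 and 0.04 on KO 2. Mammary epithelium genes gave 0 of 8, with a median of -0.79 on KO 2 and -0.15 on KO 1, and their summed level was 101 on KO 1 and 70.8 on KO 2, against 145 on WT 1 and 128 on WT 2. Of these, Krt8, a luminal keratin, was at -0.06 on KO 1 and -0.66 on KO 2 against the WT mean, and the milk protein gene Csn2 at -4.17 and -3.60. Cd68, a macrophage marker, had no named probe. Adipoq, which encodes adiponectin, read 6.69 on KO 1 and 6.75 on KO 2, against 6.71 on WT 1 and 7.28 on WT 2.

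**Figure D4:**
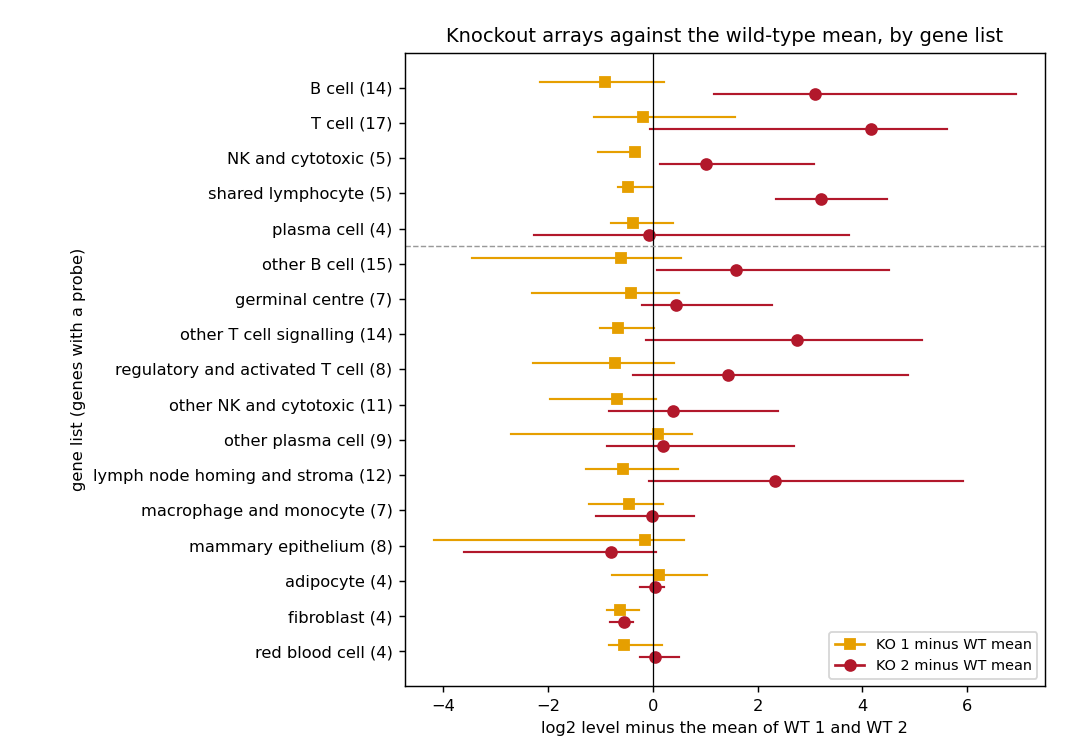
Median log2 level minus the WT mean on KO 1 and KO 2 for the 5 member groups above the dashed line and 12 further lists below it, with lines from the lowest to the highest gene. KO 2 medians reach 4.17 for T cell members and 2.34 for the lymph node list, and lie between -0.79 and 0.04 for macrophage, epithelium, adipocyte, fibroblast and red blood cell lists.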

How the data were processed

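Cy3-labelled RNA of 4 mammary gland samples, 2 per genotype, was hybridised to 1-colour Agilent mouse arrays on 1 slide in 1 scan, per the file headers. WT samples lay in the first slide positions and KO samples in the last, so position and genotype cannot be told apart. A description field that names EOC cells disagrees with the other labels and was not used.

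The authors deposited scanner files whose processed signal intensities are background-subtracted output of Agilent Feature Extraction. The file headers give its version as 11.5.1.1, whereas the submitters' processing notes give 10.7.3.1. Against these, their deposited log2 table held quantile-normalized signals with every probe centred on its median (r of 1 per array, median absolute difference at most 0.000238), which settles its scale, centring and direction. Its column medians were 0.00626 on KO 1, -0.0096 on KO 2, -0.018 on WT 1 and 0.0183 on WT 2.

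Processed signals were scaled to each array's 75th percentile and taken to log2. Control spots were dropped, as were 35 to 73 outlier-flagged spots on an array, and spots of 1 probe were averaged. Probe accessions were matched without version to RefSeq (GRCm38.p6), which named 27816 of 41174 probes. A gene was represented by its brightest probe. Tests covered the 24187 probes that cleared the background limit on the 2 arrays of KO or of WT, using the lmFit and eBayes functions of limma 3.58.1 (R 4.3.3) for KO minus WT without covariates and with Benjamini-Hochberg adjustment. A fold given as "at least" sets the brighter group's mean, or KO 2 alone, against the higher of the dim reading and the array's lowest signal above background. The fit was tested on simulated data. The members, the lists and the promoter strings were chosen with earlier results of these data known. Every member is named, and of each further list up to 3 genes with the largest fold plus a few markers, of which some are not reported here. Normexp used the median spot signal. Signal over background and 2 arrays per group limit dim genes.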

Additional observations from a re-analysis of the deposited data

How the results depend on the processing

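No gene passed an adjusted p of 0.05 under any alternative but median scaling, where 5 genes did, all lower in KO and none a member. There the limma prior degrees of freedom were 9.99 in place of 3.25, and 15 of 31 members were higher at an unadjusted p under 0.05, against 2.14% of tested genes. With the replicate block, which leaves every fold as it is (B cell median 0.89), 0 genes passed and 1 member was higher at an unadjusted p under 0.05, against 0.848% of genes. Same-numbered arrays deviated from their group means with a correlation of 0.0648, so the numbers were not taken to pair samples. Leaving out 1 array at a time moved the median KO minus WT difference from -0.91 to 3.097 for B cell, -0.18 to 4.17 for T cell, -0.34 to 1.01 for NK and cytotoxic, -0.47 to 3.20 for shared lymphocyte and -0.38 to 0.025 for plasma cell genes. Over the 45 members the median difference was 3.20 without KO 1 and -0.57 without KO 2. These fits hold 1 KO array, which is assumed to vary like the WT arrays. Under the 5 alternatives that keep every array and can change a fold, 132 of 145 values of the members given on all arrays kept their direction. Of the 5, the authors' deposited table holds the same quantile-normalized signals, so its values repeat those of quantile normalization and are not a separate check. The exceptions were Gzma and Gzmb at 0.19 and 0.014 under quantile normalization, 0.19 and 0.0143 in the authors' deposited table, and 0.097 and 0.074 under median scaling. They were also Cd79a at -0.018, Pax5 at -0.33, Cr2 at -0.11, Cd40 at -0.015, Cd4 at -0.22 and Irf4 at -0.095 under normexp, and Cd247 at 0.42 as the mean of its probes. Median scaling shifts every fold by the same amount, and the mean for Cd247 takes in its other probes, with folds of -0.04 and 1.87. For the other exceptions the cause was not tested. For single genes, the values with each array left out in turn spanned -2.16 to 2.39 for Cd79a, 0.22 to 4.92 for Cd79b, -1.46 to 6.92 for Ms4a1, -0.79 to 1.17 for Pax5, -1.20 to 1.47 for Cr2, -1.08 to 1.59 for Cd37, -0.94 to 1.74 for Cd40, -0.14 to 3.11 for Cd3e, -0.83 to 0.996 for Cd4, -0.49 to 3.32 for Cd8a, -0.052 to 4.30 for Lck, -0.57 to 4.17 for Il7r, -0.32 to 1.92 for Nkg7, -0.82 to 0.67 for Gzma, -0.34 to 0.14 for Gzmb, -0.29 to 3.07 for Ccl5, -0.00034 to 2.35 for Coro1a, -0.38 to 3.20 for Cd52, -0.63 to 3.07 for Ptprc, -0.36 to 0.38 for Irf4 and -0.66 to 4.47 for Cd69. The median of all genes was 0.17 under median scaling. The number of members at least 2-fold above the other arrays on KO 2 was 35 of the 41 above background under the 3 scalings of the processed signal and 26 under normexp. The T cell median on KO 1 against the WT mean was -0.18, and it turned to 0.26 both with quantile normalization and with median scaling.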
